A study of Homo sapiens with 6 samples.

Results

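The 45 genes described here carry cells into and through mitosis. They were chosen by name, as the rows of the deposited expression table whose gene symbol was on a list of cyclins and mitotic kinases, spindle checkpoint and kinetochore proteins, spindle motors, cytokinesis factors and the transcription factors of this program, and all 45 were found among the 58024 genes of the table. Their levels were compared by RNA-Seq between C4-2B parental cells, with 3 libraries, and their enzalutamide resistant derivative, also with 3 libraries, to ask which of these genes differed in level between them. C4-2B is a human castration-resistant prostate cancer line that descends from LNCaP through the C4-2 subline, and enzalutamide is an antiandrogen drug. The resistant cells were selected by passage in enzalutamide rising from 1 to 20 µM over at least 6 months. They were then kept in 5 µM enzalutamide, and they are a pool of surviving cells and not a clone. The parental cells were passaged alongside in DMSO vehicle, for which the labels give 1% and the study's methods a lower concentration. The labels also give 10 µM enzalutamide before RNA extraction, in wording that does not say whether the parental cells received it, so resistance and drug exposure at harvest cannot be told apart. Libraries are numbered 0, 1 and 2 in each group as labelled, and values are given in that order. Nothing in the labels says that the 3 libraries of a group came from separate cultures, so the p values measure the spread between these libraries only.

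Entry into mitosis is driven by the kinase CDK1 bound to cyclins A and B, which is switched on by CDC25 phosphatases and assisted by the Polo and Aurora kinases. The spindle checkpoint then holds cells until every kinetochore is attached to microtubules, after which the anaphase-promoting complex (APC/C) destroys cyclin B and securin, sister chromatids separate and the cell divides. Most of these genes are transcribed late in the cell cycle, through promoter elements named CHR and CCAAT box that are read by the MuvB complex with B-MYB or FOXM1 and by NF-Y, and in prostate tumors their summed expression is widely used as a measure of proliferation.

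The promoters of 7 of the genes are shown because they include large changes in either direction and genes of mitotic entry and proliferation. Of these, CDK1, CCNB1 and DLGAP5 were lower in the resistant cells, while TOP2A, CCNA2, KIF11 and MKI67 were higher. Each sequence is taken from RefSeq on GRCh38.p14, runs 5′ to 3′ on the strand of the gene and holds up to 170 bases that end before the annotated start. Capitals mark 3 kinds of letters on either strand. The CHR was searched as TTTGAA or with the variant TTCGAA, and the CCAAT box as those 5 letters. E2F letters were searched as TTGGCGC and with the variants TTCGCGC as well as TTCCCGC as well as TTGCCGC. A CHR on the other strand reads TTCAAA here, and a CCAAT box on the other strand reads ATTGG.
CDK1 promoter, chr10:60778161-60778330, forward strand: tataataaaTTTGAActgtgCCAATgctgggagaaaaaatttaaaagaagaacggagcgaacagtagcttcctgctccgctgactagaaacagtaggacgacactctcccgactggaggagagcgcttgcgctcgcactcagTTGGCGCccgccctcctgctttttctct
CCNB1 promoter, chr5:69166980-69167134, forward strand: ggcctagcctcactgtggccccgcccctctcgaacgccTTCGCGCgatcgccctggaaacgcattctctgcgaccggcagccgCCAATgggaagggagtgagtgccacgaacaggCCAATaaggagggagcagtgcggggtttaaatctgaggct
DLGAP5 promoter, chr14:55191609-55191755, reverse strand: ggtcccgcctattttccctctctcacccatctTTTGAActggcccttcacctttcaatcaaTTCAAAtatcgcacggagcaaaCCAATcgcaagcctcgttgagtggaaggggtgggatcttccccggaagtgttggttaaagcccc
TOP2A promoter, chr17:40417897-40418066, reverse strand: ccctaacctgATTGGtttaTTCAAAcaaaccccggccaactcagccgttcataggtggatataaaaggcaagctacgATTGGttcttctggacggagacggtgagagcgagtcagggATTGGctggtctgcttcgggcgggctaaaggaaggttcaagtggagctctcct
CCNA2 promoter, chr4:121823884-121824053, reverse strand: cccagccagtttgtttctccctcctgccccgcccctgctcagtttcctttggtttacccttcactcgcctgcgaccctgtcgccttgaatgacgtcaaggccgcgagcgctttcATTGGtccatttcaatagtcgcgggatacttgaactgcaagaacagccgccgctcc
KIF11 promoter, chr10:92592960-92593129, forward strand: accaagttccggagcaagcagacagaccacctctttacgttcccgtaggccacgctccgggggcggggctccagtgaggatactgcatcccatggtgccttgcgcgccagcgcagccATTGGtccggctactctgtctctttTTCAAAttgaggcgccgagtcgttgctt
MKI67 promoter, chr10:128126424-128126593, reverse strand: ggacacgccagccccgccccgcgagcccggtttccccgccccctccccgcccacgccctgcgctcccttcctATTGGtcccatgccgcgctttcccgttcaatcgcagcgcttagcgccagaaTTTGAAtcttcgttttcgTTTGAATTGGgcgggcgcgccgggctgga
CDK1 carries all 3 kinds of letters in this stretch, and CCNB1 carries a pair of CCAAT boxes and E2F letters but neither searched form of the CHR. A further RefSeq window of CDK1, with its own start, is not shown. It holds CHR letters beginning at bases -69, -13 and 9 from that start and CCAAT boxes at -78 and -46. Both a gene that fell, DLGAP5, and genes that rose, TOP2A, KIF11 and MKI67, carry a CHR with at least 1 CCAAT box. CCNA2, which also rose, carries only a CCAAT box among the searched letters. Other forms of the CHR were not searched. In MKI67, a CHR and a reverse CCAAT box overlap.

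The table held a value above 0 for each of the 45 genes in every library, from 4.79 to 318 FPKM (fragments scaled for transcript length and library size, a unit inferred since the table names none), so all 45 passed the filter of a mean of at least 0.1 FPKM. It gave no read counts. Estimated from the lowest values, the libraries held 1.35e+07 to 2.04e+07 reads, at which 1 read on a transcript of 2000 bases is worth 0.0272 to 0.0412 FPKM, far below any of these genes. A pair of short structural RNAs took unequal shares of the summed FPKM. RMRP held 18.4 to 21.5% of it in parental and 11.4 to 12.6% in resistant libraries, and RPPH1 was listed at 0 in parental and held 10.7 to 11.6% in resistant libraries, so each change was also computed on scaled values. All 10 luminal prostate markers were above 0 in every library. Their summed level was 4227 to 5004 FPKM in parental and 1234 to 1320 FPKM in resistant libraries, with 2 of the 10 higher and 7 lower. KLK3, which encodes PSA, fell from 2556 to 44 FPKM. The summed markers of other cell types were 0.559 to 0.987 against 1.78 to 1.86 FPKM for basal cells, 6.65 to 8.92 against 8.26 to 14.7 FPKM for fibroblasts, 0 to 1.08 against 0.0837 to 1.18 FPKM for leukocytes and 0.568 to 1.14 against 0.0946 to 0.420 FPKM for endothelium. Of these markers, 1 of 4 basal genes was higher and 1 lower, 2 of 5 fibroblast genes and 1 of 5 leukocyte genes were higher, and 1 of 4 endothelial genes was lower. The fibroblast genes that rose were DCN, listed at 0 in every parental library and at 3.63, 3.78 and 4.35 FPKM in resistant libraries (adjusted p = 5.33e-05), and LUM, at 0.0882, 0.0928 and 0 FPKM in parental and 1.12, 0.609 and 1.18 FPKM in resistant libraries (adjusted p = 0.00418). COL1A1, the largest term of the parental sums, was not called (adjusted p = 0.192). The part of these markers in the changes below was not tested.

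The mitotic genes did not move together. In the resistant cells, 11 were higher, 16 were lower and 18 did not pass an adjusted p of 0.05 (limma with Benjamini-Hochberg adjustment over 24468 genes). That is 60% of the 45, while 44.4% of all genes tested passed, 22.1% higher and 22.3% lower. Among the 9612 protein-coding genes with a mean at or above the lowest mean of these 45, 57.9% passed, 26.4% higher and 31.5% lower, so the share of mitotic genes that changed was close to that of other genes of this level. The changes were small. CDK1 and MYBL2 alone passed with a change of at least 2-fold, which is 4.44% of the 45 against 28.5% of all genes tested and 22.2% of the protein-coding genes of this level. The groups did not overlap for 31 of the 45 genes, with the resistant values above for 13 and below for 18. Such a separation was seen for 54.8% of all genes tested and for 68% of the protein-coding genes of this level. The median log2 fold change of the 45 was -0.13 (range -1.52 to 0.87), next to -0.05 over all genes tested and -0.07 over the protein-coding genes of this level. Here and below, a fold change is resistant against parental on the log2(FPKM + 0.1) scale with its standard error, a mean is given ± SD of 3 libraries, and adjusted p values are those of limma. In these bulk samples, fewer cells in mitosis and less RNA per cell cannot be told apart.

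**Figure D1:**
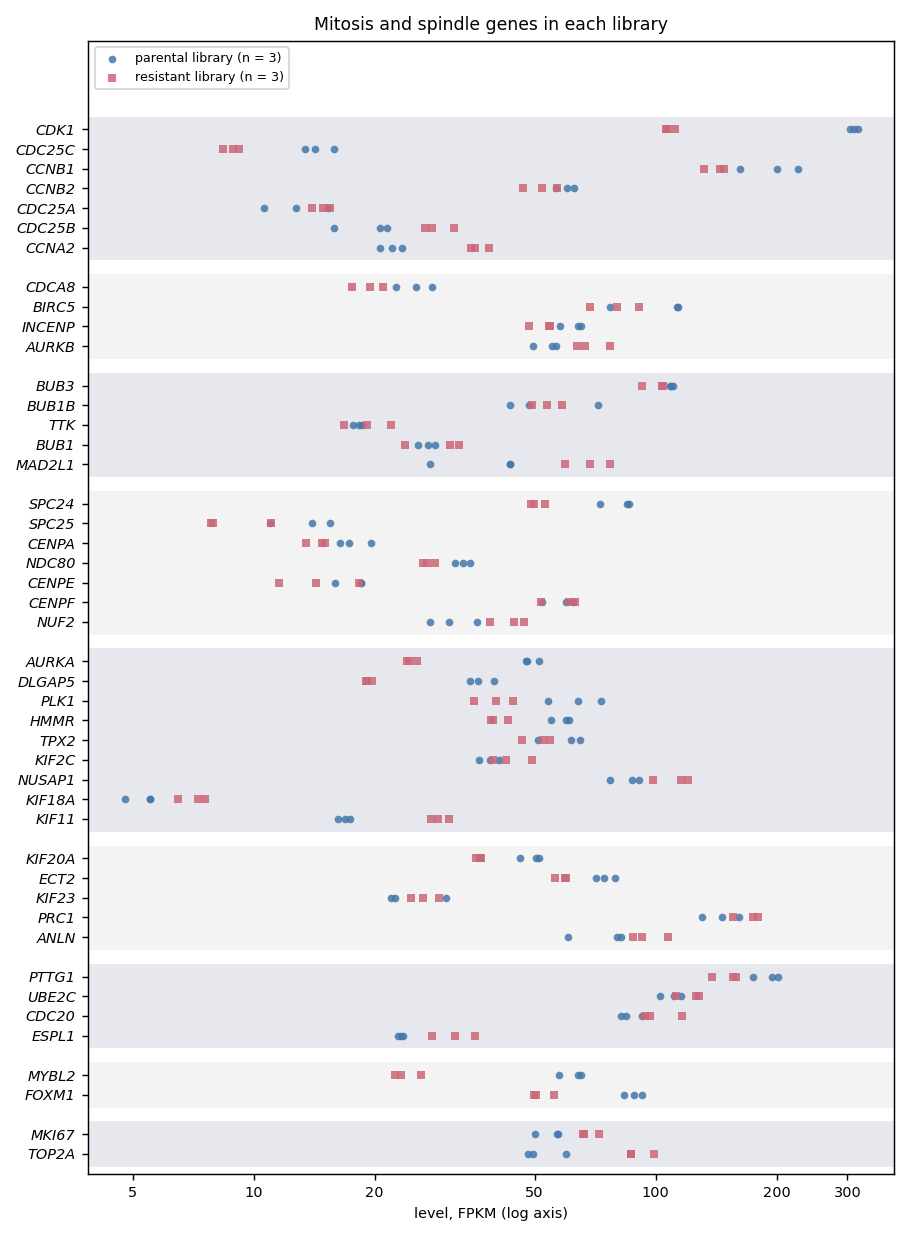
Level in FPKM on a log axis of each of the 45 genes in the 3 parental libraries (circles) and the 3 resistant libraries (squares), grouped by role in shaded bands and ordered within a role by change. CDK1 lies at 304 to 318 FPKM in parental and 106 to 112 FPKM in resistant libraries, and the groups are apart in 31 of the 45 genes.

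The balance of rises and falls depended on the scaling. It was 11 higher and 16 lower in the values as deposited, 15 and 13 after median of ratios scaling, 14 and 14 after quantile normalization and 15 and 14 when libraries were scaled without short non-coding RNA genes. The median of the 45 went from -0.13 to -0.02, 0.05 and -0.07 under these 3 scalings. Over all genes tested, the counts moved from 5405 higher and 5463 lower to 6088 and 4932, 5439 and 5686, and 5775 and 5198. The median over all genes tested went from -0.05 to 0.04, -0.07 and -0.001, in the same order. PRC1, ANLN, CDC20 and UBE2C became higher calls under all 3, and NDC80 and SPC25 lost their lower call under all 3.

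**Figure D2:**
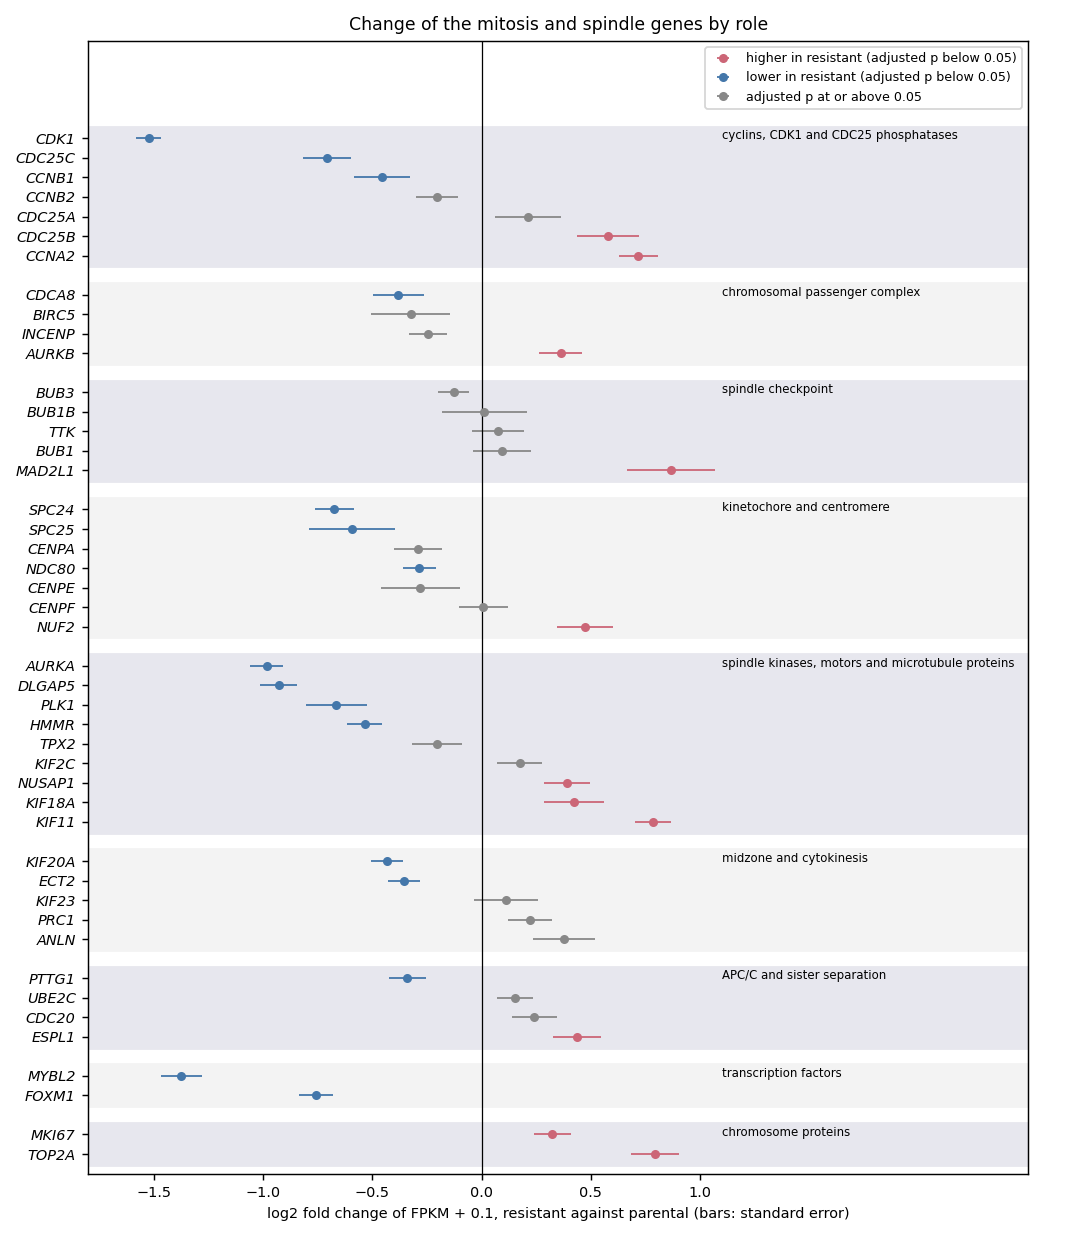
Log2 fold change of FPKM + 0.1, resistant against parental, for the 45 genes by role, with bars of 1 standard error and colors for the limma call at an adjusted p below 0.05. Points lie on both sides of 0 within most roles, from CDK1 at -1.52 to MAD2L1 at 0.87. Under at least 1 of the 3 other scalings NDC80, SPC25, CDCA8 and KIF18A lose their call, and PRC1, ANLN, CDC20 and UBE2C gain one.

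Among the cyclins, CDK1 and the CDC25 phosphatases, 2 genes rose, 3 fell and 2 did not pass the test. CDK1, the kinase that starts mitosis, was the most abundant of the 45 in parental cells, at 318, 304 and 312 FPKM, and was measured at 112, 107 and 106 FPKM in resistant cells. The groups lay far apart, and the fall was the largest of the 45 (log2 fold change -1.52 ± 0.06, adjusted p = 1.32e-05). CCNB1, which encodes the cyclin that CDK1 needs for mitosis, went from 200.3, 163 and 225 to 132, 145 and 148 FPKM, a smaller fall with the groups just apart (log2 fold change -0.46 ± 0.13, adjusted p = 0.0274). That call was lost when any library other than parental 1 was left out (adjusted p of 0.0637 to 0.0890). CDC25C, a phosphatase that activates CDK1 at mitotic entry, fell from 15.8, 13.4 and 14.2 to 8.4, 9.18 and 8.89 FPKM without overlap (log2 fold change -0.71 ± 0.11, adjusted p = 0.00279). In the opposite direction, CCNA2, the cyclin of DNA replication and early mitosis, was measured at 22.1, 23.4 and 20.6 FPKM in parental and 34.8, 38.5 and 35.5 FPKM in resistant cells. Every resistant library was above every parental library (log2 fold change 0.72 ± 0.09, adjusted p = 0.00100). CDC25B, the phosphatase that acts first at mitotic entry, rose from 21.4, 15.8 and 20.6 to 27.7, 26.7 and 31.6 FPKM (log2 fold change 0.58 ± 0.14, adjusted p = 0.0174), and this call was lost without resistant 2 (adjusted p = 0.0629). CCNB2, the other B cyclin, averaged 59.7 ± 3.19 FPKM in parental and 51.9 ± 4.98 FPKM in resistant cells, and CDC25A, which also acts on entry into replication, averaged 12.9 ± 2.37 FPKM in parental and 14.8 ± 0.742 FPKM in resistant cells, and the groups overlapped for both.

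In the chromosomal passenger complex, which corrects wrong attachments and later directs cytokinesis, the kinase and CDCA8 moved in opposite directions. AURKB, the kinase, was measured at 56.7, 49.5 and 55.2 FPKM in parental and 77.2, 63.9 and 66.6 FPKM in resistant cells and was higher (log2 fold change 0.36 ± 0.10, adjusted p = 0.0263). CDCA8, which encodes borealin and helps to place the complex at the centromere, went from 25.4, 22.6 and 27.8 to 17.6, 21.0 and 19.5 FPKM and was lower (log2 fold change -0.38 ± 0.12, adjusted p = 0.0372). The groups did not overlap for either gene. BIRC5 (survivin) averaged 101 ± 20.9 FPKM in parental and 80.0 ± 11.2 FPKM in resistant cells with overlap, and INCENP, the scaffold, averaged 62.4 ± 4.10 FPKM in parental and 52.6 ± 3.50 FPKM in resistant cells with every resistant value below the parental values (adjusted p = 0.0601). Single libraries decided several of these calls. AURKB lost its call without parental 1 or 2 or resistant 0 or 2 (adjusted p of 0.0552 to 0.0669) and CDCA8 without parental 0 or 2 or resistant 0 or 2 (0.0874 to 0.104) and under median of ratios scaling (0.0657). BIRC5 (0.0280) and INCENP (0.0393) were called lower without parental 1.

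Of the 5 spindle checkpoint genes, 1 rose and 4 did not pass the test. MAD2L1, which encodes the MAD2 protein that binds and restrains CDC20, was measured at 43.5, 27.5 and 43.4 FPKM in parental cells and 59.6, 77.0 and 68.8 FPKM in resistant cells. Parental 1 was lower than the other parental libraries, and all resistant libraries were above all 3 (log2 fold change 0.87 ± 0.20, adjusted p = 0.0143). It had the largest rise of the 45, and its call was lost without resistant 1 (adjusted p = 0.0550) or resistant 2 (0.0528). The other 4 genes, the kinases BUB1 and TTK, the MAD2 partner BUB1B (BUBR1) and the kinetochore adaptor BUB3, had log2 fold changes from -0.13 to 0.09. Of these, BUB3 had the most negative change, from 110.3, 109 and 108 to 92.5, 103 and 105 FPKM, with all resistant values below the parental values, an adjusted p of 0.190 and a change of 0.05 after quantile normalization.

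At the kinetochore and centromere, 1 gene rose, 3 fell and 3 did not pass the test. NDC80, NUF2, SPC24 and SPC25 encode the 4 subunits of the NDC80 complex, the main microtubule binder of the kinetochore, and they did not share a direction. SPC24 fell from 85, 72.6 and 85.7 to 49.7, 53.1 and 49.0 FPKM, with the groups well apart (log2 fold change -0.68 ± 0.09, adjusted p = 0.00139). SPC25 went from 15.5, 11.0 and 14 to 11.0, 7.92 and 7.81 FPKM, with parental 1 and resistant 0 overlapping (log2 fold change -0.59 ± 0.20, adjusted p = 0.0487). NDC80 went from 33.1, 34.6 and 31.7 to 26.4, 27.0 and 28.2 FPKM (log2 fold change -0.28 ± 0.08, adjusted p = 0.0248). NUF2, in contrast, was measured at 27.5, 30.6 and 35.9 FPKM in parental and 47.2, 44.5 and 38.6 FPKM in resistant cells and was higher (log2 fold change 0.47 ± 0.13, adjusted p = 0.0250). The NDC80 and NUF2 groups did not overlap. SPC24 alone of the 4 held its call in every alternative. NDC80 (adjusted p of 0.0583 to 0.0691) and NUF2 (0.0638 to 0.0809) lost theirs without parental 0 or 1 or resistant 0 or 1. SPC25 lost its call without parental 0 or 2 or resistant 1 or 2 (0.122 to 0.143) and under all 3 scalings (0.0576 to 0.0988), and NDC80 under all 3 scalings (0.0721 to 0.125). Of the other kinetochore genes, the centromeric histone CENPA averaged 17.8 ± 1.66 FPKM in parental and 14.5 ± 0.842 FPKM in resistant cells without overlap (adjusted p = 0.0712), the motor CENPE 17.6 ± 1.5 FPKM in parental and 14.7 ± 3.41 FPKM in resistant cells and CENPF, a large kinetochore protein, 58.2 ± 5.34 FPKM in parental and 58.5 ± 5.98 FPKM in resistant cells.

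The genes of spindle kinases, motors and microtubule proteins split between the directions, with 3 higher, 4 lower and 2 that did not pass. AURKA, the kinase of centrosomes and spindle poles, fell from 51.3, 47.9 and 47.5 to 24.3, 24.1 and 25.5 FPKM, just under 2-fold (log2 fold change -0.98 ± 0.07, adjusted p = 0.000144). DLGAP5 (HURP), which stabilizes microtubules near chromosomes, fell from 36.2, 34.6 and 39.7 to 19.6, 19.2 and 19.0 FPKM (log2 fold change -0.93 ± 0.08, adjusted p = 0.000306). PLK1, the Polo kinase of mitotic entry and spindle assembly, fell from 63.9, 53.9 and 73.0 to 35.3, 44.3 and 40.1 FPKM (log2 fold change -0.67 ± 0.14, adjusted p = 0.00905). The groups did not overlap for any of these 3 genes. HMMR, which ties spindle poles together, went from 61.0, 59.7 and 54.9 to 39.3, 38.9 and 42.8 FPKM and was also lower without overlap (log2 fold change -0.54 ± 0.08, adjusted p = 0.00224). KIF11 (Eg5), the motor that pushes the poles apart, was measured at 16.2, 17.3 and 16.9 FPKM in parental and 27.7, 28.8 and 30.7 FPKM in resistant cells. It rose with little spread in either group (log2 fold change 0.78 ± 0.08, adjusted p = 0.000587). NUSAP1, which bundles spindle microtubules, rose from 91.0, 76.9 and 87.5 to 98.7, 120.3 and 116 FPKM (log2 fold change 0.39 ± 0.11, adjusted p = 0.0247). KIF18A, a motor that dampens chromosome movements and the least abundant of the 45, went from 4.79, 5.52 and 5.53 to 7.59, 6.48 and 7.26 FPKM (log2 fold change 0.42 ± 0.14, adjusted p = 0.0477). Both separated the groups, but NUSAP1 lost its call without parental 1 or 2 or resistant 1 or 2 (adjusted p of 0.0534 to 0.0839), and KIF18A without any of the 6 libraries (0.0577 to 0.128) and after quantile normalization (0.0529). TPX2, which activates AURKA on the spindle, averaged 59.2 ± 7.18 FPKM in parental and 51.2 ± 4.10 FPKM in resistant cells, and the microtubule depolymerase KIF2C averaged 38.6 ± 2.16 FPKM in parental and 43.7 ± 4.98 FPKM in resistant cells, both with overlap.

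For the midzone and cytokinesis, 2 genes fell and 3 did not pass the test. KIF20A, a motor of the central spindle, fell from 51.2, 46.1 and 50.3 to 35.7, 36.8 and 36.7 FPKM (log2 fold change -0.43 ± 0.07, adjusted p = 0.00406). ECT2, the exchange factor that starts the contractile ring, fell from 71.0, 74.3 and 79.3 to 56.2, 59.8 and 59.5 FPKM (log2 fold change -0.35 ± 0.07, adjusted p = 0.00831). Neither gene had overlapping groups. ANLN (anillin), a scaffold of the ring, was measured at 82.0, 60.7 and 80.3 FPKM in parental and 107, 87.7 and 92.7 FPKM in resistant cells, apart but short of the threshold (log2 fold change 0.38 ± 0.14, adjusted p = 0.0742). PRC1, which bundles midzone microtubules, averaged 146 ± 15.4 FPKM in parental and 170.1 ± 12.7 FPKM in resistant cells and KIF23, a subunit of centralspindlin, 24.8 ± 4.56 FPKM in parental and 26.6 ± 2.17 FPKM in resistant cells, and both overlapped. PRC1 was the most abundant of the 45 in resistant cells, where CDK1 was the sixth. ANLN (adjusted p of 0.0216 to 0.0438) and PRC1 (0.0174 to 0.0420) were called higher under all 3 other scalings.

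Of the genes of the APC/C and of sister separation, securin and separase moved in opposite directions. PTTG1 (securin), the inhibitor that the APC/C destroys, fell from 195, 175 and 202 to 138, 156 and 158 FPKM (log2 fold change -0.34 ± 0.09, adjusted p = 0.0194). ESPL1 (separase), the protease that securin holds back, rose from 23.6, 22.9 and 23.3 to 27.7, 31.8 and 35.5 FPKM (log2 fold change 0.44 ± 0.11, adjusted p = 0.0175). Both separated the groups. PTTG1 lost its call without parental 0 or 2 or resistant 0 (adjusted p of 0.0548 to 0.0639), and ESPL1 without resistant 1 (0.0535). CDC20, the activator of the APC/C, averaged 86.2 ± 5.41 FPKM in parental and 102 ± 12 FPKM in resistant cells without overlap, and UBE2C, its ubiquitin-conjugating enzyme, averaged 109.8 ± 6.52 FPKM in parental and 122 ± 8.31 FPKM in resistant cells with overlap. Neither passed the test in the values as deposited, and both were called higher under all 3 other scalings (CDC20 0.0144 to 0.0449, UBE2C 0.00721 to 0.0300).

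Both transcription factors fell. MYBL2 (B-MYB), which acts with the MuvB complex, was measured at 64.1, 57.5 and 65.3 FPKM in parental cells and 23.3, 26.1 and 22.5 FPKM in resistant cells, the largest fall after CDK1 (log2 fold change -1.38 ± 0.09, adjusted p = 9.79e-05). FOXM1, which follows it at the same promoters, fell from 83.4, 88.5 and 92.4 to 50.0, 50.4 and 55.9 FPKM (log2 fold change -0.76 ± 0.08, adjusted p = 0.000511). The groups were well apart for both, and both calls held in every alternative. The 2 chromosome proteins rose. TOP2A, the topoisomerase that untangles sister chromatids, went from 48.1, 49.7 and 59.7 to 99.2, 86.8 and 86.6 FPKM (log2 fold change 0.79 ± 0.11, adjusted p = 0.00159). MKI67, whose protein Ki-67 coats mitotic chromosomes and is a common proliferation marker, went from 50.0, 56.8 and 57.2 to 66.2, 72.3 and 66.4 FPKM (log2 fold change 0.32 ± 0.08, adjusted p = 0.0212), also without overlap. The MKI67 call was lost without parental 0 (adjusted p = 0.0607) or resistant 1 (0.0659), and over all alternatives its adjusted p reached 0.0887.

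Calls that held under every alternative on scaling, filter, pseudocount, variance model, replicate block and left-out library were 3 of the 11 rises and 10 of the 16 falls. The 3 rises were CCNA2, KIF11 and TOP2A. The 10 falls were CDK1, CDC25C, SPC24, PLK1, AURKA, HMMR, DLGAP5, KIF20A, FOXM1 and MYBL2. ECT2 lost its call only when no mean-variance trend was used (adjusted p = 0.0552). In that alternative 12 of the 45 genes lost their call, among them CCNB1 (adjusted p = 0.0788) and AURKB (0.0876). The losses named by role above are mainly those under scalings and left-out libraries. Within the groups, parental 1 was the lowest parental library for 26 of the 45 genes, and resistant 0 the lowest resistant library for 26. The part of these libraries in the changes was not tested beyond leaving each out.

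Summed over the 45 genes, parental libraries held 2861, 2634 and 2989 FPKM and resistant libraries 2387, 2555 and 2548 FPKM. All 3 resistant sums were below the parental sums, at 0.883 of the parental mean, or 0.919 of it when scaled without short non-coding RNA genes, where the groups stayed apart, and 0.950 after median of ratios scaling, where they overlapped. Without CDK1, the sums averaged 2516 ± 175 FPKM in parental and 2388 ± 98.5 FPKM in resistant cells (SD, n = 3), and the groups overlapped. As a share of the FPKM of all protein-coding genes, the 45 held 0.469% ± 0.0129 in parental and 0.427% ± 0.00377 in resistant cells (SD, n = 3). Ordered by level, the 45 genes kept much of their order, with a Spearman rho of 0.859 between the means of the groups, a description across genes that share libraries. The median coefficient of variation among the 3 libraries of a group was 7.39% in parental and 7.93% in resistant cells.

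DNA replication genes, which are transcribed earlier in the cycle, mostly rose. Of 50 such genes tested, 30 were higher, 4 lower and 16 not called, with a median log2 fold change of 0.50, and the 4 that fell included the replication-entry cyclin CCNE1 (-0.83), the clamp loader subunit RFC3 (-0.62) and thymidine kinase TK1 (-0.58). The share called was 68%, against 57.9% of protein-coding genes of comparable level (26.4% higher and 31.5% lower) and 44.4% of all genes tested. The largest rises were those of the ligase LIG1 (1.90), the clamp loader subunit RFC2 (1.30) and the helicase subunit GINS3 (1.25). Taken as the mean log2(FPKM + 0.1) of each list within a library, the mitotic genes lay above the replication genes by 0.0746, 0.109 and 0.109 in parental libraries, and the difference was -0.433, -0.481 and -0.431 in resistant libraries. Being taken within a library, this difference depends little on scaling. Of 132 other mitosis genes tested, 37 were higher and 23 lower (50 and 18 after median of ratios scaling), with a median of 0.10. The share called was 45.5%, close to that of all genes tested and below that of protein-coding genes of comparable level. In that list CKS1B, a small partner of CDK1, rose from 7.08, 7.59 and 6.24 to 23.6, 27.4 and 28 FPKM. BORA, an activator of AURKA toward PLK1, rose from 2.16, 3.09 and 2.73 to 9.70, 8.99 and 9.09 FPKM. The microtubule destabilizer STMN1 rose from 142, 125 and 151 to 352, 405 and 394 FPKM. Each of these 3 genes separated the groups by a wide margin. The most negative changes were those of the cohesin regulator PDS5B (-2.93), the centromere protein CENPN (-1.45) and the kinase NEK6 (-1.45). Of the 17 APC/C subunits and partners, 2 were higher, 1 lower and 14 not called.

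**Figure D3:**
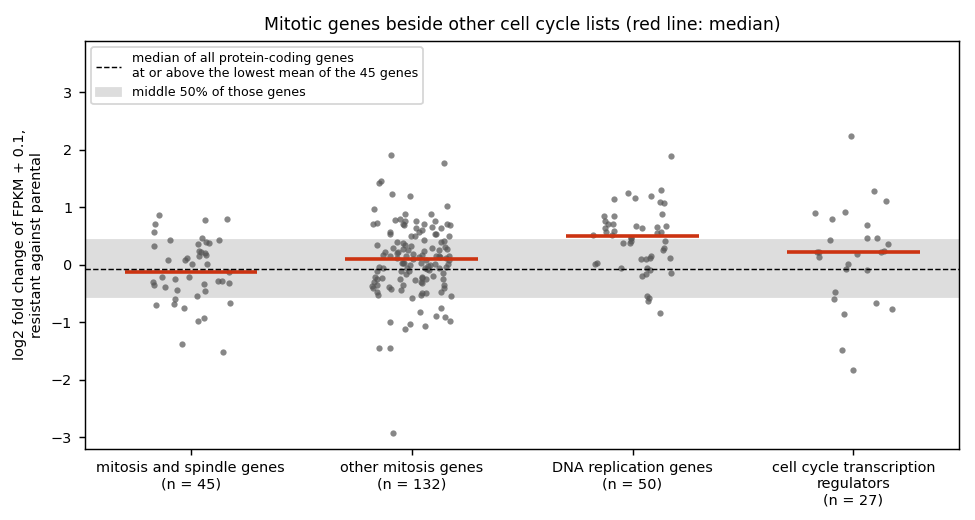
Log2 fold change of FPKM + 0.1, resistant against parental, for the 45 genes and 3 further cell cycle lists, 1 point per gene, with the median of each list as a red line, and the median (dashed) and middle 50% (grey) of the 9612 protein-coding genes of comparable level. The 45 center near the other genes at -0.13, which was 0.05 after quantile normalization, and the DNA replication genes center at 0.50.

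Partners in a complex or pathway were set against each other as ratios within each library, which also do not depend on scaling. The 15 pairs were chosen after the values had been seen, so they are a description, and 3 libraries against 3 cannot give an exact permutation p below 0.1. In 13 of the 15 pairs the groups did not overlap. No share over other pairs of genes was computed. Of single protein-coding genes of this level, 68% already separated the groups, so this count is not a result about partners. CDK1 over CCNB1 averaged 1.61 ± 0.242 in parental and 0.767 ± 0.0699 in resistant cells, and CDK1 over CCNA2 14.2 ± 1.09 in parental and 2.99 ± 0.219 in resistant cells, so that cyclins A and B were both more abundant relative to the kinase RNA in resistant cells. AURKA over AURKB averaged 0.911 ± 0.0537 in parental and 0.359 ± 0.0376 in resistant cells, and TPX2 over AURKA 1.21 ± 0.149 in parental and 2.08 ± 0.139 in resistant cells. For the passenger complex, CDCA8 over AURKB averaged 0.469 ± 0.0303 in parental and 0.283 ± 0.0505 in resistant cells and INCENP over AURKB 1.16 ± 0.00726 in parental and 0.768 ± 0.121 in resistant cells. NUF2 over NDC80 averaged 0.948 ± 0.161 in parental and 1.6 ± 0.213 in resistant cells. SPC25 over SPC24, the other pair of that complex, averaged 0.165 ± 0.0154 in parental and 0.177 ± 0.0394 in resistant cells and overlapped. Securin over separase, PTTG1 over ESPL1, averaged 8.2 ± 0.509 in parental and 4.78 ± 0.285 in resistant cells. BUB1B over BUB1 averaged 2.02 ± 0.551 in parental and 1.87 ± 0.172 in resistant cells and also overlapped.

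**Figure D4:**
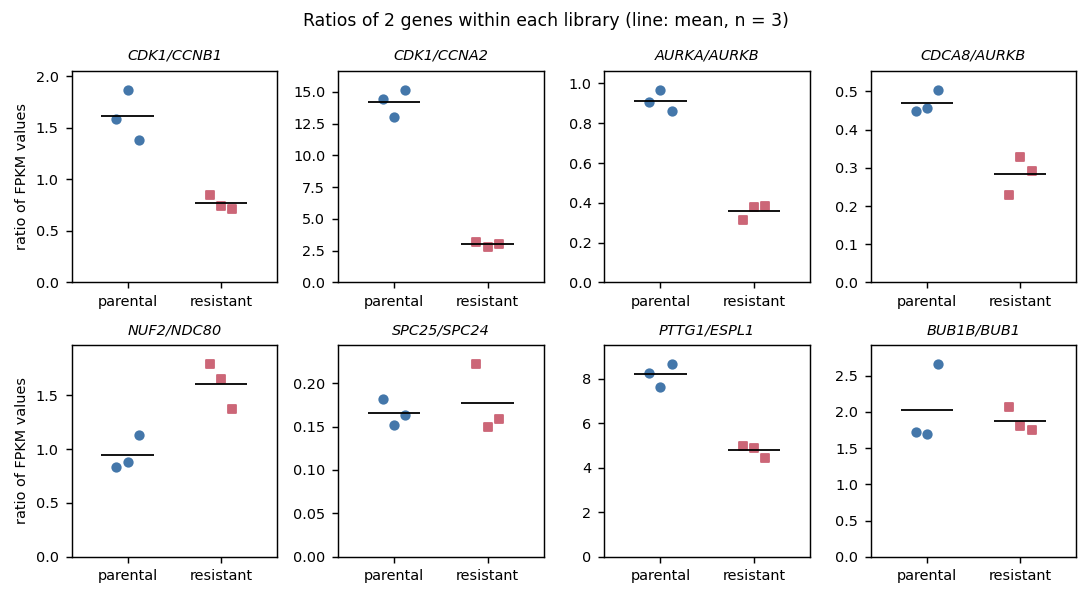
Ratio of the FPKM values of 2 genes within each library for 8 pairs, with 3 parental libraries (circles), 3 resistant libraries (squares) and a line at each mean, on axes that start at 0. The groups are apart in 6 of the 8 panels, and SPC25 over SPC24 and BUB1B over BUB1 overlap. The pairs were chosen after the values had been seen.

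The regulators that read these promoters or restrain CDKs changed in both directions, with 8 of 27 higher, 7 lower and a median of 0.22. The share called was 55.6%, close to the 57.9% of protein-coding genes of comparable level (26.4% higher and 31.5% lower). Of all genes tested, 44.4% were called. Among activating E2F genes, E2F2 rose from 5.07, 5.67 and 4.96 to 24.1, 25.4 and 25.6 FPKM (2.24, adjusted p = 2.61e-05) and E2F1 from 31.1, 31.6 and 32.4 to 43.5, 47.7 and 40.2 FPKM (0.46, adjusted p = 0.00599), while E2F3 fell from 14.9, 13.7 and 14.9 to 8.24, 9.75 and 9.45 FPKM (-0.66, adjusted p = 0.00404). All 3 separated the groups. Of the MuvB and pocket protein genes, LIN9 (1.29) and RBL1 (0.44, adjusted p = 0.0484) were higher and LIN37 (-0.48) was lower, as were MYBL1 (-0.59), E2F5 (-0.76) and TFDP2 (-0.85). RB1 averaged 16.1 ± 1.04 FPKM in parental and 18.7 ± 1.32 FPKM in resistant cells and did not pass the test (adjusted p = 0.136). Of the CDK inhibitors, CDKN1A (p21), which restrains CDKs and represses many of these promoters, fell from 90.4, 75.1 and 83.3 to 28.1, 29.6 and 31 FPKM (-1.48, adjusted p = 6.90e-05), with the groups far apart. CDKN2D (1.11), CDKN1C (0.92), CDKN2C (0.80) and CDKN1B (0.70) were higher.

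The letters marked in the sequences above were counted over the whole RefSeq window of each promoter, from 250 bases before to 50 after the start. The table held 48 windows for 38 of the 45 genes, and no window was used for BUB3, TPX2, TTK, FOXM1, UBE2C, BIRC5 and AURKA. Of the 38 genes, 6 had more than 1 window and count once per window. CDC25B, which rose, and CDC25C, which fell, had 4 windows each, so the shares by call are of windows and not of genes. A CHR was found in 64.6% of the 48 windows against 13.7% of 22199 windows of protein-coding genes, and a CCAAT box in 75% against 34.7%. Both occurred in 54.2% against 5.48%, and E2F letters in 31.2% against 16.1%. From 100 bases before the start onward, the shares were 58.3% against 5.81% for the CHR, 60.4% against 22% for the CCAAT box and 14.6% against 8.92% for E2F letters. By call, a CHR was found in 9 of 15 whole windows of genes that rose, 12 of 20 of genes that fell and 10 of 13 of the others. A CCAAT box was found in 12, 15 and 9 of them, and E2F letters in 5, 8 and 2. In the shorter window, the CCAAT box shares were 53.3% for genes that rose, 65% for genes that fell and 61.5% for the others. The median log2 fold change was 0.05 for the 28 genes with a CHR and -0.31 for the 10 without, and -0.29 for the 13 genes with E2F letters and 0.01 for the 25 without, and each of these 4 sets ran from CDK1 or MYBL2 at its lowest to MAD2L1, TOP2A or CCNA2 at its highest. For the CCAAT box, the median was 0.008 for the 31 genes with it and 0.012 for the 7 without. A match of letters is a description of sequence and not a bound site. Only the stated forms were searched, so genes counted as without a CHR may hold another form of it.

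**Figure D5:**
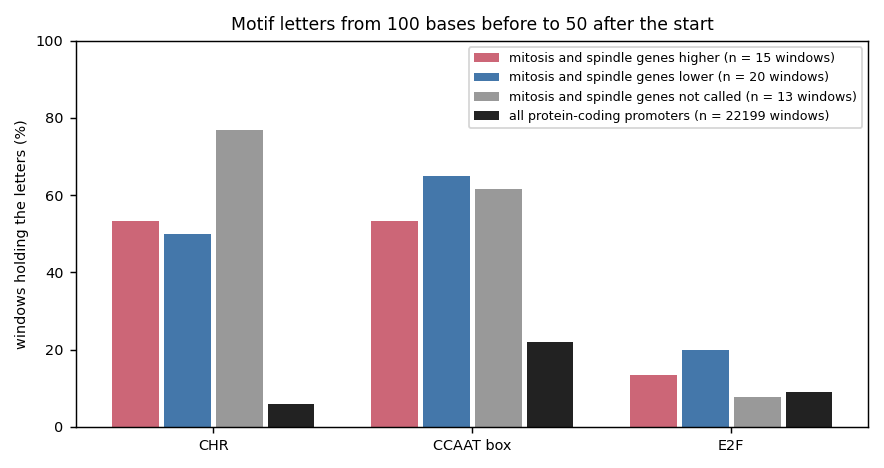
Percent of promoter windows, from 100 bases before to 50 after the start, that hold the CHR, CCAAT box or E2F letters on either strand, for mitotic genes called higher (15 windows), lower (20) or not called (13) and for all 22199 protein-coding windows. CHR letters occur in 53.3%, 50.0% and 76.9% of the mitotic windows and in 5.81% of all windows. Genes with several windows count once for each.

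The 45 genes lie on 17 chromosomes (GENCODE v44, GRCh38). CDK1 spans chr10:60778331-60794852 on the forward strand, MYBL2 chr20:43667019-43716495 on the forward strand, AURKA chr20:56369389-56392337 on the reverse strand and TOP2A chr17:40388525-40417896 on the reverse strand, and the deposited values are per gene. Of the 44 genes with at least 5 measured protein-coding neighbors within 2000000 bases, 26 had the same sign of change as the median of their neighbors. For some, that median was near the change of the gene itself, as for MAD2L1 (0.87, neighbors 0.80), CCNA2 (0.72, neighbors 0.87) and CCNB1 (-0.46, neighbors -0.46). For others it was not, as for CDK1 (-1.52, neighbors -0.04), KIF11 (0.78, neighbors -0.04) and TOP2A (0.79, neighbors -0.16). Over the 44 genes, Pearson r was 0.28. Other genes of the 45 were kept among the neighbors. MAD2L1 and CCNA2 lie within this distance of each other, and the neighbor median of CCNA2 is the value of MAD2L1. They are therefore not separate examples. Other close genes of the list, such as CDC25C and KIF20A, also count among each other's neighbors, and the count of 26 and the correlation include them. The part of position in the changes was not tested. Across genes, the change had a Spearman rho of 0.31 with exonic length and -0.05 with level, given as a description since the genes share libraries. Exons of 4 genes share bases with another gene on the same strand (BUB1B with PAK6, CENPA with SLC35F6, and NUSAP1 and PRC1), and those of 13 with a gene on the other strand, such as FOXM1 with ITFG2. Whether reads were counted by strand is not given in the sources used here, so reads of such pairs may be mixed. Processed copies were low beside their sources. PTTG2 was measured at 1.01, 2.53 and 1.83 FPKM in parental and 0.360, 0 and 0 FPKM in resistant cells, CDC20P1 at 1.46, 1.69 and 1.22 FPKM in parental and 0.0438, 0.133 and 0.146 FPKM in resistant cells, and AURKAPS1 at 0.962 to 2.12 FPKM over all libraries, so the values of PTTG1, CDC20 and AURKA could shift by reads shared with them.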

How the data were processed

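RNA-Seq of 3 parental and 3 resistant C4-2B libraries was used. According to their methods, the authors used single-end 50 bp reads, TrimGalore 0.4.3 for trimming, STAR 2.5.3 with GENCODE v25 for alignment to the human genome, and Cufflinks 2.2.1 for differential expression. The deposited table names no unit and the methods name none. The deposited values were taken as FPKM, an inference from the authors' use of Cufflinks and from the fractional values. The submitters' processing notes list the build mm10, while the gene identifiers are human. How libraries were scaled against each other is not given in the sources used here, and relative FPKM cannot show a change in total RNA.

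The moderated test of limma 3.58.1 (R 4.3.3, mean-variance trend) was run on log2(FPKM + 0.1) for genes averaging at least 0.1 FPKM, two-sided, with Benjamini-Hochberg adjustment and a threshold of 0.05. The values are not counts, so no count test was run. Depths were estimated with fragments of 200 bases assumed. The fit was tested on simulated data. It called 42 of 101 genes changed by 1 log2 unit, 78 of 99 changed by 2 and 9 of 24268 unchanged genes. A gene that was not called may therefore still have changed. Far fewer genes changed in the simulation than were called in the data, so these shares are not the power here. Positions came from GENCODE v44 and promoters from RefSeq (GRCh38.p14). Python 3.11.15, numpy 2.4.6, pandas 2.3.3, scipy 1.17.1 and matplotlib 3.10.9 were used.

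The 45 genes, the other lists and the tests were chosen with earlier results of these data known. Of the 45, values in every library were given for each gene called, for the largest change in either direction of each role, and for MKI67, TOP2A, FOXM1, MYBL2, CDK1, CCNB1, PLK1 and AURKA. Of the other lists, up to 3 called genes with the largest rise and up to 3 with the largest fall at a mean of at least 1 FPKM were named, and any regulator. Libraries with the same number did not deviate together (correlations of 0.00802, 0.0165 and -0.00301), so the numbers were not taken as pairs. Alternatives covered the pseudocount, the filter, 3 scalings, the variance trend, the replicate block, the thresholds and each library left out. The values of a few genes of the lists are not reported here.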

Additional observations from a re-analysis of the deposited data

How the results depend on the processing

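The 3 libraries per group limit the calls of small changes. Of the 45 mitosis and spindle genes, 11 higher and 16 lower became 5 and 10 without a variance trend, and 3 and 11 at an adjusted p below 0.01, while 0 and 2 passed with at least 2-fold. With each library left out, 5 to 8 were higher (5 without resistant 1, 6 without resistant 2 and 7 without parental 1) and 11 to 17 lower, and the median ran from -0.16 to -0.07. That median of -0.13 became -0.0233 after median of ratios scaling and turned to 0.0474 after quantile normalization, and the summed FPKM ratio of 0.883 became 0.950 after median of ratios scaling. Median of ratios scaling moved the median over all genes from -0.05 to 0.04, and quantile normalization moved it to -0.07. Of the 132 other mitosis genes, 37 higher and 23 lower became 27 and 15 without a trend, 25 and 14 at an adjusted p below 0.01, 7 and 6 with at least 2-fold, and 28 to 36 and 16 to 24 with a library left out. Of the 27 regulators, 8 and 7 became 5 and 4 at an adjusted p below 0.01, 3 and 2 with at least 2-fold, and 5 to 8 (5 without resistant 2) and 5 to 6 with a library left out. Of the 50 DNA replication genes, 30 and 4 became 22 and 2 at an adjusted p below 0.01, 8 and 0 with at least 2-fold, and 23 to 29 and 3 to 4 with a library left out, and their median of 0.50 became 0.60 after median of ratios scaling, 0.58 after quantile normalization and 0.42 to 0.53 with a library left out. In the shorter window, from 100 bases before the start, the share of promoter windows with a CCAAT box went from 75% to 60.4% and that with E2F letters from 31.2% to 14.6%. Fewer samples or a stricter threshold account for part of these by construction, and otherwise the cause was not tested. With the replicate number as a block, 9 of the 45 genes were higher and 14 lower, and over all genes 4670 were higher and 4793 lower, against 5405 and 5463 without it. CDCA8, NDC80, NUF2, KIF18A and NUSAP1 lost their calls under the block (adjusted p of 0.0717 to 0.109) and ANLN gained one (0.0398), but the libraries share only a number.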
